A study of Mus musculus with 7 samples.

Results

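The 45 genes described here copy the genome in S phase or decide when copying starts. They were chosen by symbol from textbook roles, with earlier results of these data known. All 45 matched a single row among the 53465 rows of the deposited table, and all 45 passed the filter on low counts that left 15645 genes to test. By role, 11 genes license origins, 7 fire them, 16 encode polymerases, the sliding clamp and their helpers, 5 supply nucleotides, 3 belong to the G1/S switch and 3 rebuild chromatin behind the fork.

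Replication starts at origins, where the origin recognition complex (ORC), Cdc6 and Cdt1 load the MCM helicase in G1, a step called licensing. The kinases Cdc7 and CDK2, with Cdc45 and the GINS complex, then turn the loaded helicase into a moving fork, and PCNA, clamped on DNA by replication factor C, tethers the polymerases. E2F transcription factors, held back by the retinoblastoma protein until cyclin-dependent kinases phosphorylate it, drive many of these genes, so in a tumor their RNA is commonly read as a sign of cells that are cycling.

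EMT6 is a mammary carcinoma cell line of the BALB/c mouse. In each young female BALB/c mouse, 500000 EMT6 cells were placed in the mammary fat pad, and antibody treatment began on day 1 at 250 μg per mouse, repeated every 3 days until the institutional endpoint. The control group (EMT6-P) comprised 3 tumors under an isotype control antibody, for which the labels list the same dose. The resistant group (EMT6-PTR, written PDR in the labels) comprised 3 primary tumors under αPD-L1, an antibody that blocks the checkpoint ligand PD-L1. In addition, 1 further library came from a metastasis of the resistant variant and has no replicate. Its label gives the source as breast tumor tissue and names no site of the metastasis. RNA came from tumor tissue, in which tumor cells lie among host stroma and immune cells. The libraries held 20430110 to 25213472 estimated counts, and the least abundant member still had 25 counts in its lowest library. The labels do not state that the 3 samples of a group, called tumors here, came from separate mice, and the paper describes replicates as technical unless specified, which it does not do for these libraries. The p-values then measure only the spread between these samples, which may be technical.

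Libraries did not all behave alike, and this bears on each result. EMT6-PTR tumor 3 stood apart from the other primary tumors, and the metastasis held genes of another tissue, as given with the marker genes further on. The gene CT010467.1 alone took 13.8% of the counts of EMT6-PTR tumor 2 and at most 1.35% in any other library. The negative binomial dispersion, the spread of counts beyond counting error, was 0.0266 among the EMT6-P tumors and 0.247 among the EMT6-PTR tumors.

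The RNA of the replication genes was lower in 1 resistant tumor and in the metastasis, moderately lower in a second resistant tumor, and near the control level in the remaining one. Expression is given as CPM, a gene's count relative to the size of its library, scaled by the upper-quartile method, and the difference of a gene in a library is the log2 ratio of its CPM to the mean CPM of the EMT6-P tumors, with 0.1 CPM added to each. Over the 45 genes, the median difference was 0.08, −0.02 and −0.08 in EMT6-P tumors 1 to 3. It was −0.01 in EMT6-PTR tumor 1, −0.38 in tumor 2, −1.58 in tumor 3 and −1.54 in the metastasis, while the median over all genes tested stayed between −0.04 and 0.01 in every library. The summed CPM of the 45 genes was 2669, 2534 and 2430 in the EMT6-P tumors, 2462, 1955 and 934 in the EMT6-PTR tumors, and 943 in the metastasis. In bulk tissue, fewer cells of a type and less RNA per cell cannot be told apart.

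Counted gene by gene, 18 of the 45 genes in EMT6-PTR tumor 1 lay below all 3 EMT6-P tumors (background over all genes tested 32.5%). That count was 35 in tumor 2 (background 38.1%), 42 in tumor 3 (background 42.7%) and 42 in the metastasis (background 43.2%). No member stood at least 2-fold below the EMT6-P mean in tumor 1 (background 2.05%) or in tumor 2 (background 3.92%), whereas 33 did in tumor 3 (background 14.1%) and 36 in the metastasis (background 11.4%). EMT6-PTR tumor 3 was the lowest of the 6 primary tumors for 41 members (background 34.5%). EMT6-PTR tumor 2 was the lowest for Gins2, Rfc3 and Chaf1b (background 18.8%), EMT6-PTR tumor 1 for none (background 13.6%), and EMT6-P tumor 3 for Rpa1.

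**Figure D1:**
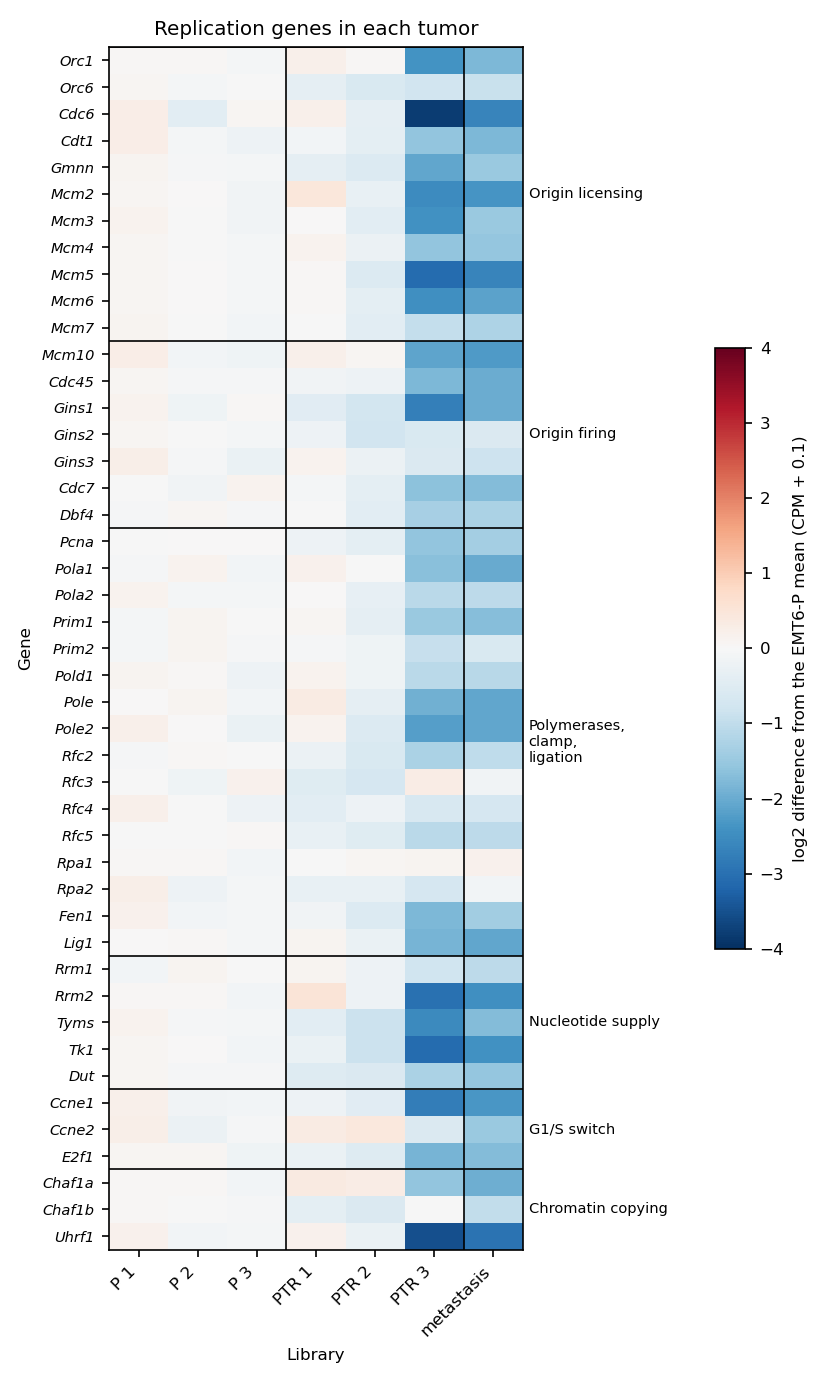
Log2 difference of each of the 45 replication genes (rows, grouped by role) from the mean of the 3 EMT6-P tumors, in each of the 7 libraries (columns), on a color scale in log2 units. EMT6-PTR tumor 3 and the metastasis, with medians of −1.58 and −1.54, carry the low values, and Rfc3, Rpa1 and Chaf1b depart from their neighbours in tumor 3.

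The comparison of the 3 EMT6-PTR with the 3 EMT6-P tumors asked whether resistant tumors differed in these genes as a group. In edgeR's quasi-likelihood fit, with p-values adjusted after Benjamini and Hochberg over all 15645 genes, 0 of the 45 members passed an adjusted p of 0.05 (background 0.0%), and the smallest adjusted p of a member was 0.421. DESeq2 and limma-voom also called 0 members, although DESeq2 called 281 genes in all (background for lower calls 0.914%), and its smallest adjusted p of a member was 0.0726, for Orc6. Without adjustment, 5 members had a p under 0.05 and were lower, 11.1% of the members against a background of 5.57%, and none was higher (background 5.84%). The log2 fold change was below 0 for 43 of the 45 genes (background 47.7%), with a median of −0.49 against 0.03 over all genes tested, and ranged from −1.03 for Tyms to 0.12 for Ccne2. The groups did not overlap, with all 3 EMT6-PTR values below all 3 EMT6-P values, for 15 members or 33.3% (background 11.8%), and in the other direction for 0 members (background 9.52%). Those 15 genes were Orc6, Gmnn, Cdc45, Gins1, Gins2, Pcna, Rfc2, Rfc5, Rpa2, Fen1, Tyms, Tk1, Dut, Ccne1 and E2f1. Members share the same 6 tumors and are not replicates of one another.

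The size of the group difference rested on EMT6-PTR tumor 3. Without it the median log2 fold change of the members was −0.18, and 36 of the 45 were below 0. In that comparison 13 members had an unadjusted p under 0.05 and were lower, against a background of 11.5%. Leaving out EMT6-PTR tumor 1 instead gave a median of −0.82 with 12 such members, against a background of 8.45%. Without EMT6-PTR tumor 2 there were 3 such members (background 3.77%), and without EMT6-P tumors 1 to 3 there were 2, 2 and 3 (background 1.89%, 2.75% and 2.73%).

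**Figure D2:**
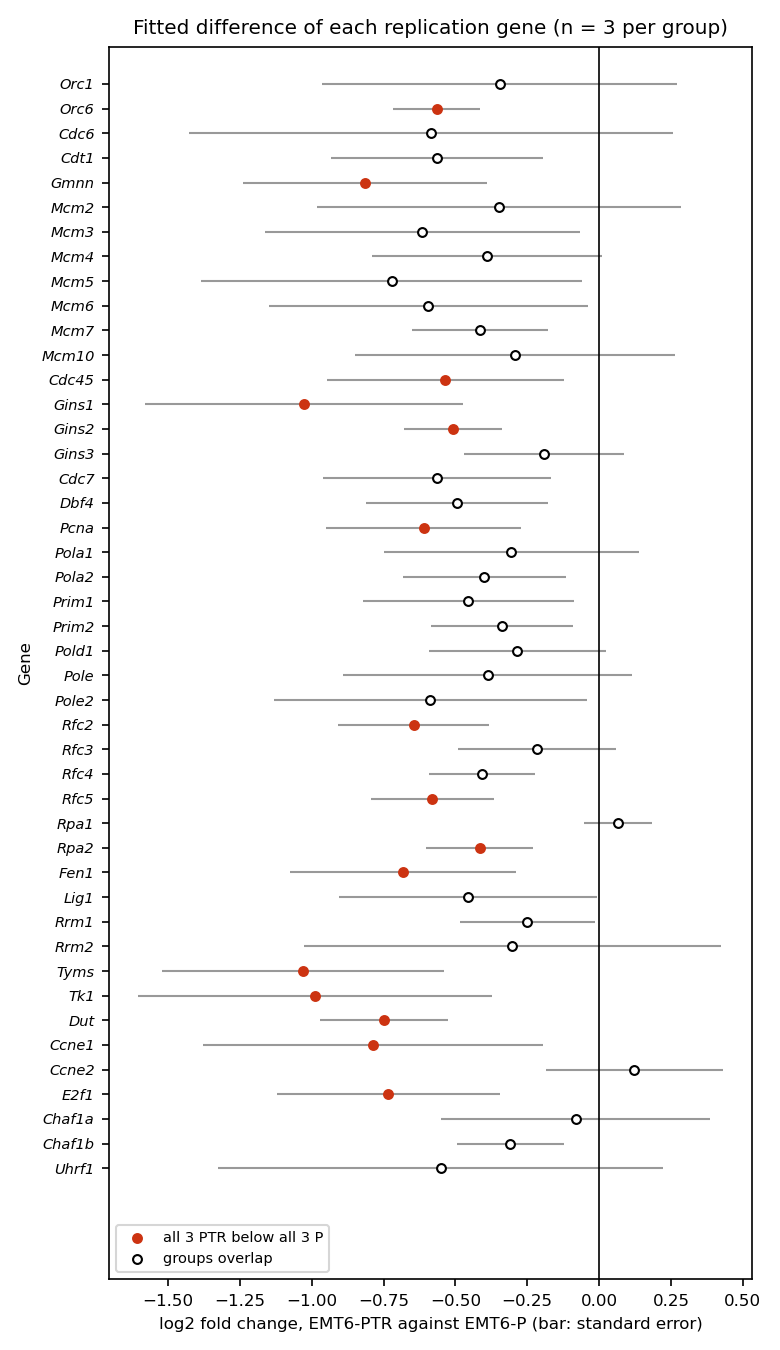
Log2 fold change of EMT6-PTR against EMT6-P for the 45 members by role, with bars of 1 standard error from edgeR's quasi-likelihood fit (n = 3 libraries per group, which the labels do not tie to separate mice), filled red where all 3 EMT6-PTR values lay below all 3 EMT6-P values and open elsewhere. Points lie between −1.03 and 0.12, and the bars are widest for genes such as Cdc6 and Uhrf1 that were lowest in EMT6-PTR tumor 3.

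Promoter sequence is shown for 4 members that differ in how many E2F motifs they hold, to be set beside their values. RefSeq promoter windows, from 250 bases before to 50 bases after the start of the gene on GRCm38.p6, were found for 37 of the 45 members. The printed bases are the 250 upstream bases, 5′ to 3′ on the strand of the gene, and capitals mark exact matches on either strand to an E2F motif spelled TTTCCCGC, TTTCGCGC, TTTGCCGC or TTTGGCGC. Mcm5 (chr8:75109259-75109508, plus strand) holds a pair of overlapping matches that start at position −153 from the gene start. Orc1 (chr4:108579204-108579453, plus strand) holds 1 match at position −27. Rfc3 (chr5:151651209-151651458, minus strand) holds 1 at position −10, and a second one begins at the start itself, just outside the printed bases. Rrm2 (chr12:24708004-24708253, plus strand) holds none.
Mcm5: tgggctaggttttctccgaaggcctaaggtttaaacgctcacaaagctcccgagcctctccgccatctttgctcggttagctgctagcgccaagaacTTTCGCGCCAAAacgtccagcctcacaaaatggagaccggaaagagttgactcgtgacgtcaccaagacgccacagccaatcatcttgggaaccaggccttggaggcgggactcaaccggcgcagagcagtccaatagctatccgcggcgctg
Orc1: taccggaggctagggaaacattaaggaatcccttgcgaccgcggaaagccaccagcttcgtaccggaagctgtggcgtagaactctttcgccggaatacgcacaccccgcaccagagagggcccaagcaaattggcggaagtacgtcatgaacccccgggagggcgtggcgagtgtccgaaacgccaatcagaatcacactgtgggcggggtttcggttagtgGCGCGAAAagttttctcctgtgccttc
Rfc3: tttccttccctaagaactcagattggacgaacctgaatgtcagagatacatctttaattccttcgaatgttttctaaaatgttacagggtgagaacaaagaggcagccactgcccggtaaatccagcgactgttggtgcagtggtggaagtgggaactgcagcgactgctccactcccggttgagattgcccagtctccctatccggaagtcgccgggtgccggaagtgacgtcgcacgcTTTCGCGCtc
Rrm2: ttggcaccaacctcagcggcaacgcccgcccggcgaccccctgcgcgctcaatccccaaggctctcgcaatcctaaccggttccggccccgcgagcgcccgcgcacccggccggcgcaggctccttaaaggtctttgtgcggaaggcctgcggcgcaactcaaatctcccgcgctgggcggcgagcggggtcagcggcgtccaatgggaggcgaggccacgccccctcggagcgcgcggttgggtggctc

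In EMT6-PTR tumor 3, Mcm5 with its overlapping matches was 8.4-fold below the EMT6-P mean and Orc1 was 5.27-fold below, but Rrm2 with no match was 7.84-fold below, and Rfc3 with 2 matches stood at 59.3 CPM, above all 3 EMT6-P tumors. An E2F match was present in 14 of the 37 members with a window (37.8%), against 2.61% of the 27018 genes with a window. The genes were Orc1, Cdc6, Cdt1, Mcm3, Mcm5, Mcm6, Mcm7, Gins3, Pola1, Pold1, Pole2, Rfc3, Lig1 and Uhrf1. In EMT6-PTR tumor 3 the median difference was −2.02 for these 14 (range −3.81 to 0.31) and −1.58 for the 23 without a match (range −3.08 to 0.12), so the ranges overlapped, and the split was made after the values were seen and has no test. The CCAAT box (CCAAT) was in 54.1% of the members with a window against 41.1% of all genes, and the cell cycle element CHR (TTTGAA) in 16.2% against 20.2%, both strands searched in each case. For comparison, in the 24 genes with a window of a list of mitosis genes the shares were 4.17% for the E2F motif, 79.2% for CCAAT and 66.7% for CHR. A match describes the letters in these windows, not binding.

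Licensing genes were low throughout in EMT6-PTR tumor 3, with a median difference of −2.40. All 11 were lowest there among the 6 primary tumors (background 34.5%), and 9 were at least 2-fold below the EMT6-P mean (background 14.1%). Orc6 (chr8:85299632-85308278, GRCm38, plus strand), a subunit of the origin recognition complex, was at 39.5, 35.0 and 36.8 CPM in the EMT6-P tumors and 28.9, 24.5 and 21.8 CPM in the EMT6-PTR tumors. The groups did not overlap, and all 3 EMT6-PTR tumors were low. Its log2 fold change was −0.56 (SE 0.15, unadjusted p = 0.00844), the smallest p of the 45, with an adjusted p of 0.421 in edgeR's quasi-likelihood test.

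Gmnn encodes geminin, the inhibitor of Cdt1 that blocks a second round of licensing. It was at 24.96, 22.7 and 22.3 CPM in EMT6-P and 18.4, 16.04 and 5.45 CPM in EMT6-PTR, so that the groups did not overlap and tumor 3 was far below the rest (log2 fold change −0.81, SE 0.42, edgeR adjusted p 0.485). Mcm4, a helicase subunit and the most abundant licensing gene per kilobase of exon, was at 117, 109 and 104 CPM in EMT6-P. Its EMT6-PTR values were 122, 93.2 and 37.1 CPM, which enclose the EMT6-P range (log2 fold change −0.39, SE 0.40, edgeR adjusted p 0.694). Cdc6, the loader of the helicase, had the lowest relative value of any member, named here because it was the most extreme: it stood at 0.973 CPM in EMT6-PTR tumor 3, 14.0-fold below the EMT6-P mean, but at 17.2 and 11.8 CPM in the other EMT6-PTR tumors, within the EMT6-P range of 11.2 to 17.97 CPM. Cdt1, which works with it, was 2.97-fold below the EMT6-P mean in tumor 3, and the helicase genes Mcm2, Mcm3 and Mcm6 were 5.35-fold to 5.68-fold below. The other helicase genes Mcm4, Mcm5 and Mcm7 were 2.96-fold, 8.40-fold and 1.92-fold below. Over the licensing genes the median log2 fold change was −0.56, from −0.81 for Gmnn to −0.35 for Orc1.

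Origin firing genes had a median log2 fold change of −0.51, and Cdc45, Gins1 and Gins2 were the 3 of 7 whose groups did not overlap (background 11.8%). Gins2, a subunit of the GINS complex that completes the helicase, was at 51.3, 48.8 and 46.6 CPM in EMT6-P and 42.0, 28.9 and 32.2 CPM in EMT6-PTR. Here tumor 2, not tumor 3, was lowest (log2 fold change −0.51, SE 0.17, unadjusted p = 0.0222, edgeR adjusted p 0.427). Its partner Gins1 was at 13.8, 11.1 and 12.9 CPM in EMT6-P and 9.26, 7.55 and 1.79 CPM in EMT6-PTR, with a log2 fold change of −1.03 (SE 0.55, edgeR adjusted p 0.494). Both subunits were lower in all 3 EMT6-PTR tumors than in any EMT6-P tumor, but they were unequally low in tumor 3. The kinase gene Cdc7, its activator Dbf4, the helicase cofactor Cdc45 and the loading factor Mcm10 were 2.52-fold to 4.30-fold below the EMT6-P mean in tumor 3, and Gins3 1.49-fold below.

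Of the 6 roles, polymerases and the clamp had the median nearest to the control level in EMT6-PTR tumor 3, at −1.18. Pcna, the sliding clamp and the most abundant of them per kilobase, was at 199, 202 and 202 CPM in EMT6-P, a narrow range, and 174, 154 and 67.2 CPM in EMT6-PTR. The groups did not overlap (log2 fold change −0.61, SE 0.34, edgeR adjusted p 0.503). Rfc5 and Rfc2 encode subunits of replication factor C, which opens the clamp and places it on DNA. Rfc5 was at 48.2, 48.0 and 50.4 CPM in EMT6-P and 40.1, 34.9 and 23.1 CPM in EMT6-PTR (log2 fold change −0.58, SE 0.21, unadjusted p = 0.032, edgeR adjusted p 0.427). Rfc2 was at 53.4, 57.7 and 55.0 CPM in EMT6-P and 47.5, 36.0 and 22.8 CPM in EMT6-PTR (log2 fold change −0.64, SE 0.26, unadjusted p = 0.0462, edgeR adjusted p 0.437). In both genes every EMT6-PTR tumor was below every EMT6-P tumor.

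Rfc3, another subunit of the same loader, had another pattern, at 46.9, 42.7 and 53.7 CPM in EMT6-P and 34.0, 30.0 and 59.3 CPM in EMT6-PTR. Tumors 1 and 2 were below the EMT6-P range and tumor 3 above it. Rpa1, the large subunit of the protein that coats single-stranded DNA, was at 78.5, 78.4 and 69.8 CPM in EMT6-P and 75.2, 80.0 and 82.2 CPM in EMT6-PTR (log2 fold change 0.07, SE 0.12). The groups overlapped, and the difference was smaller than the spread between tumors. The polymerase genes Pola1, Pola2, Prim1, Prim2, Pold1, Pole and Pole2, which prime and extend the new strands, were 1.91-fold to 4.57-fold below the EMT6-P mean in tumor 3. The flap nuclease gene Fen1 and the ligase gene Lig1, which finish lagging strand fragments, were 3.49-fold and 3.59-fold below. Rfc4, of the clamp loader, and Rpa2, a partner of Rpa1, were 1.55-fold and 1.58-fold below.

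Nucleotide supply held the lowest role median in EMT6-PTR tumor 3, at −2.55. Dut (chr2:125247190-125258608, GRCm38, plus strand), whose product removes dUTP so that uracil is not built into DNA, was at 314, 292 and 290.4 CPM in EMT6-P and 209, 202 and 123 CPM in EMT6-PTR. All 3 EMT6-PTR tumors were well below the EMT6-P tumors, and Dut was also the most abundant member per kilobase of all 45, at 124 CPM per kilobase in EMT6-P. The log2 fold change of Dut was −0.75 (SE 0.22, unadjusted p = 0.0135, edgeR adjusted p 0.421). Tyms, thymidylate synthase, was at 45.3, 39.7 and 38.6 CPM in EMT6-P and 30.8, 22.9 and 6.93 CPM in EMT6-PTR. The groups did not overlap, and its log2 fold change of −1.03 (SE 0.49, edgeR adjusted p 0.468) was the lowest of the members. The thymidine kinase gene Tk1 was 8.43-fold below the EMT6-P mean in tumor 3.

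In the G1/S switch, E2f1, an activating E2F factor, was at 34.1, 34.3 and 29.2 CPM in EMT6-P and 27.2, 22.6 and 8.92 CPM in EMT6-PTR (log2 fold change −0.73, SE 0.39, edgeR adjusted p 0.49). Ccne1, a cyclin E that activates CDK2, was at 22.0, 17.3 and 17.7 CPM in EMT6-P and 16.4, 13.9 and 2.73 CPM in EMT6-PTR (log2 fold change −0.79, SE 0.59, edgeR adjusted p 0.596). For both genes the groups did not overlap. Ccne2, the other cyclin E gene, was at 11.8, 8.47 and 9.73 CPM in EMT6-P and 12.5, 13.5 and 6.74 CPM in EMT6-PTR, with tumors 1 and 2 above the EMT6-P range and tumor 3 below it (log2 fold change 0.12, SE 0.31).

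Among the genes that copy chromatin, Uhrf1, which brings the maintenance DNA methyltransferase to new DNA, was at 125, 102 and 104 CPM in EMT6-P and 125, 90.8 and 9.50 CPM in EMT6-PTR. Tumor 1 was as high as any control and tumor 3 was 11.5-fold below the EMT6-P mean (log2 fold change −0.55, SE 0.77, edgeR adjusted p 0.778). Chaf1b, a subunit of the histone chaperone CAF-1, was at 24.5, 23.8 and 23.4 CPM in EMT6-P and 18.2, 15.8 and 23.9 CPM in EMT6-PTR (log2 fold change −0.31, SE 0.19, edgeR adjusted p 0.528). In this gene tumors 1 and 2 were low and tumor 3 was within the EMT6-P range. The partner subunit Chaf1a was at 31.3, 31.7 and 28.6 CPM in EMT6-P and 39.2, 37.2 and 10.2 CPM in EMT6-PTR, the opposite arrangement.

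Ratios between partners within 1 library do not depend on how libraries are scaled, and the pairs given here were chosen after the values were seen and carry no test. The CPM ratio of Rrm2 to Rrm1, the small and large subunits of ribonucleotide reductase, was 0.924, 0.800 and 0.786 in EMT6-P and 1.11, 0.836 and 0.183 in EMT6-PTR. The ratio of Chaf1a to Chaf1b was 1.22 to 1.33 in EMT6-P, but 2.16, 2.35 and 0.425 in EMT6-PTR tumors 1 to 3, outside the EMT6-P range on both sides. Ccne2 to Ccne1 was 0.491 to 0.551 in EMT6-P and 0.764, 0.966 and 2.48 in EMT6-PTR, above the EMT6-P range in every resistant tumor. The helicase subunits, which work as a ring with 1 copy of each, also spread apart: the ratio of Mcm5 to Mcm7 was 0.996 to 1.06 in EMT6-P, 1.08 and 0.932 in EMT6-PTR tumors 1 and 2, 0.234 in tumor 3 and 0.389 in the metastasis. Per kilobase of exon, the most abundant of the 6 ring subunits exceeded the least abundant 2.38-fold to 2.55-fold in EMT6-P, 1.99-fold and 2.55-fold in EMT6-PTR tumors 1 and 2, 5.05-fold in tumor 3 and 4.36-fold in the metastasis.

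**Figure D3:**
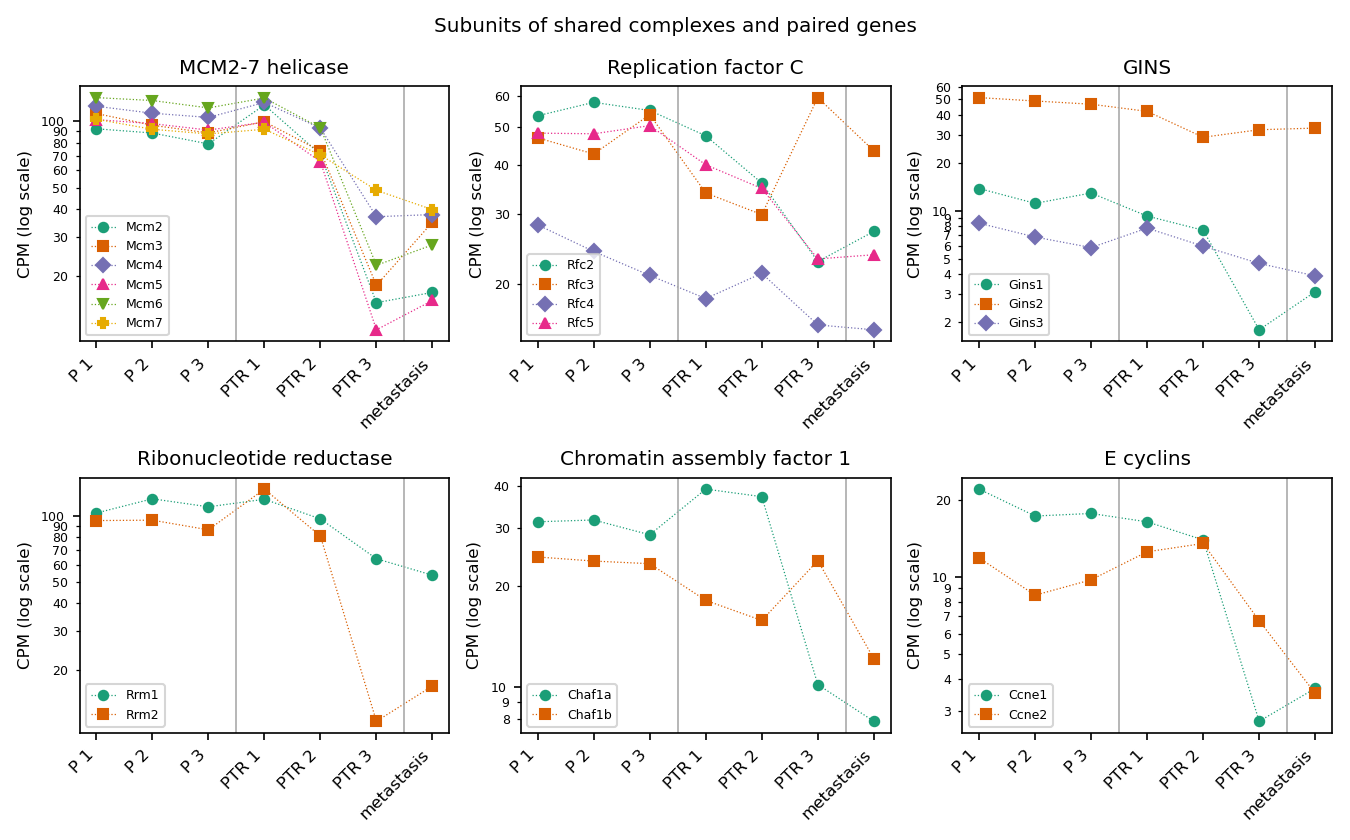
CPM of the partners within complexes or pairs (each panel) in each of the 7 libraries (x axis), on a log CPM axis, with dotted lines that only join the points of a gene. In EMT6-PTR tumor 3 the partners spread apart, with Rrm2 at 11.7 CPM beside Rrm1 at 63.8 CPM and Rfc3 at 59.3 CPM beside Rfc2 at 22.8 CPM.

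The metastasis, 1 library without a replicate, resembled EMT6-PTR tumor 3 in the size of the difference and cannot be tested. Its values lay within the range of the 3 EMT6-PTR primary tumors for 25 members, below it for 18 (background 29.0%) and above it for Rpa1 and Rpa2. Against EMT6-PTR tumor 3 alone it was lower for 19 members (background 54.3%) and higher for 26, with a median difference of 0.05. Cdc6 stood at 2.31 CPM in the metastasis and 0.973 in tumor 3, Tyms at 12.3 and 6.93 CPM, and Uhrf1 at 14.2 and 9.50 CPM. Chaf1b and Rfc3, which were not low in tumor 3, stood at 12.2 and 43.5 CPM in the metastasis, against EMT6-P ranges of 23.4 to 24.5 and 42.7 to 53.7 CPM. Ccne2 stood at 3.50 CPM, below all 6 primary tumors.

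Other genes of the pathway were taken from lists that do not hold the members. Among 38 other replication genes, 35 had a log2 fold change below 0 (background 47.7%) with a median of −0.25, and 5 lower (background 5.57%) and 1 higher (background 5.84%) had an unadjusted p under 0.05, none of them with an adjusted p under 0.05 in edgeR's quasi-likelihood test. Gins4, the fourth GINS gene, was at 28.7, 27.4 and 26.3 CPM in EMT6-P and 19.7, 19.2 and 14.9 CPM in EMT6-PTR. Pold4, a small subunit of polymerase delta, was at 43.2, 45.8 and 37.4 CPM in EMT6-P and 28.2, 28.3 and 30.8 CPM in EMT6-PTR. Rnaseh2c, a subunit of the ribonuclease that removes ribonucleotides from DNA, was at 15.6, 15.1 and 16.4 CPM in EMT6-P and 11.3, 8.71 and 9.81 CPM in EMT6-PTR. In these 3 genes, which have the smallest p of the list, each EMT6-PTR tumor was below each EMT6-P tumor. That held for 11 of the 38 genes (background 11.8%), and 1 gene was apart in the other direction (background 9.52%). Rnaseh2c was the only one of the 3 named genes called by DESeq2 (adjusted p 0.0374). The median of the list in EMT6-PTR tumor 3 was −0.68, and 15 of 38 genes were at least 2-fold below the EMT6-P mean (background 14.1%).

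G1/S regulators other than the members had a median log2 fold change of −0.22 over 23 genes, 1 of which was lower with an unadjusted p under 0.05 (background 5.57%). That gene, Cdk4, the kinase partner of cyclin D, was at 435, 447 and 404 CPM in EMT6-P and 358, 336 and 229 CPM in EMT6-PTR (log2 fold change −0.48, edgeR adjusted p 0.437). The retinoblastoma gene Rb1 was at 23.1, 27.1 and 26.2 CPM in EMT6-P and 27.4, 32.0 and 35.6 CPM in EMT6-PTR (log2 fold change 0.32). Each resistant tumor was above each control (background 9.52%), tumor 1 only narrowly. Cdk6 had a log2 fold change of −0.39. Of the 7 genes of CDK inhibitors, Cdkn1b, which encodes p27, was at 40.8, 51.6 and 45.9 CPM in EMT6-P and 73.2, 65.3 and 60.4 CPM in EMT6-PTR. It was higher in each EMT6-PTR tumor than in each EMT6-P tumor (background 9.52%). Its log2 fold change was 0.52 (unadjusted p = 0.00976), but its adjusted p was 0.421 in edgeR's quasi-likelihood test. In EMT6-PTR tumor 3 the inhibitor genes differed in direction: Cdkn2b and Cdkn1a were at least 2-fold below the EMT6-P mean (differences −1.98 and −1.03), and Cdkn2a was at least 2-fold above it (1.24). Cdkn2d and Cdkn1c had log2 fold changes of −0.51 and 0.58, and in the metastasis Cdkn1c stood at 13.9 CPM against 0.555 to 1.32 CPM in the primary tumors.

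Mitosis genes were low in the same libraries. Over 28 genes the median difference was 0.11 and −0.01 in EMT6-PTR tumors 1 and 2 but −2.70 in tumor 3 and −2.68 in the metastasis, and in both of these all 28 were at least 2-fold below the EMT6-P mean (background 14.1% and 11.4%). In the test of the groups, 27 of the 28 were below 0 (background 47.7%) with a median of −0.38, and 0 had an unadjusted p under 0.05 in edgeR (background 5.57% lower, 5.84% higher). Cenpa, the centromeric histone, was at 65.5, 66.5 and 67.6 CPM in EMT6-P and 58.4, 39.5 and 8.84 CPM in EMT6-PTR. Ccnb2 and Birc5, a mitotic cyclin and the survivin gene, had log2 fold changes of −0.73 and −0.84. In the replication stress list of 15 genes the median log2 fold change was −0.24, with none at an unadjusted p under 0.05 (the same background), and the 3 with the smallest p were Trp53 (log2 fold change −0.42), Wee1 (0.27) and Gadd45a (−0.36).

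**Figure D4:**
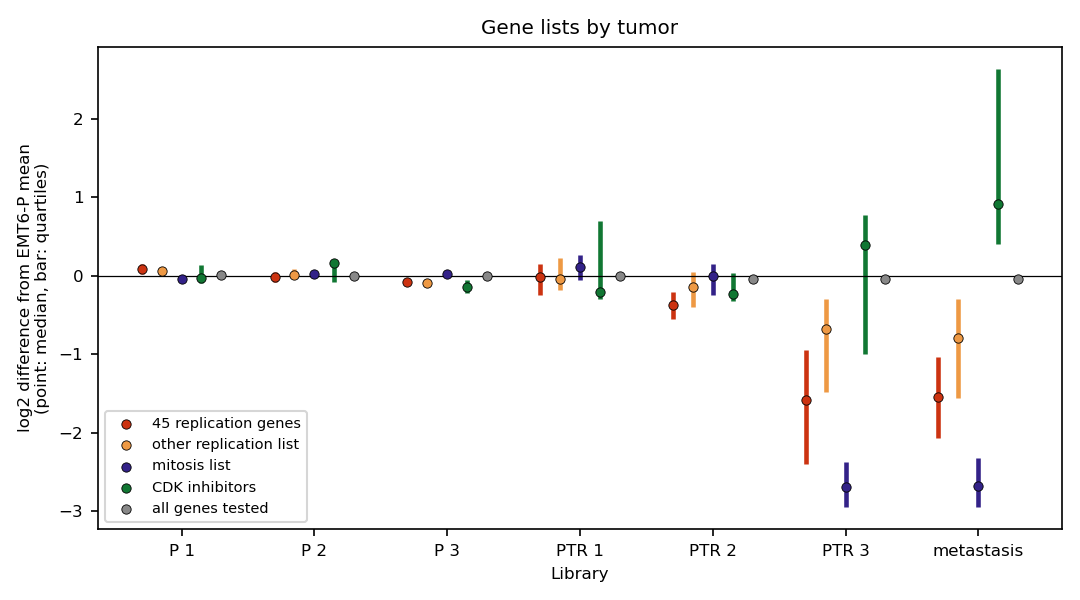
Log2 difference from the EMT6-P mean (y axis) in each library (x axis) for the replication genes, the other replication genes, the mitosis genes, the CDK inhibitor genes and all genes tested, with points at the median and bars over the quartiles. In EMT6-PTR tumor 3 the replication genes stood at −1.58 and the mitosis genes at −2.70, while the 7 CDK inhibitor genes lay on both sides of 0.

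The makeup of the libraries also differed, not always along with these values, and its part in them was not tested. The most abundant gene of a marker list is the one with the highest mean CPM over the 7 libraries. The summed CPM of 8 epithelial keratin and junction genes was 2656, 2512 and 2700 in EMT6-P, 2606 and 2384 in EMT6-PTR tumors 1 and 2, and 614 in tumor 3. In tumor 3, 4 of 8 were at least 2-fold below the EMT6-P mean (background 14.1%). Krt8, the most abundant, was at 1749 to 1891 CPM in EMT6-P and 504 CPM in tumor 3, while Epcam and Cdh1, which define epithelium, were detected but did not exceed 10.5 CPM in any primary tumor. None of the list was at 0 in any library. The 7 leukocyte genes summed to 919, 929.9 and 776 CPM in EMT6-P and 955, 921 and 458 CPM in EMT6-PTR. In tumor 3 all 7 were below every EMT6-P tumor (background 42.7%). Lcp1, the most abundant, was at 215 to 297 CPM in EMT6-P and 77.4 CPM in tumor 3.

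The summed CPM of fibroblast genes was higher in EMT6-PTR tumor 3. Their 7 genes summed to 5728, 6185 and 7661 CPM in EMT6-P, 6759 and 9408 CPM in EMT6-PTR tumors 1 and 2, 21370 CPM in tumor 3 and 13200 CPM in the metastasis. In tumor 3, 5 of 7 were at least 2-fold above the EMT6-P mean (background 11.1%) and none was at 0. In the metastasis 3 of 7 were (background 14.8%), the median difference was 0.25, and Col3a1 alone gave 6594 CPM, while Col1a1 stood at 2204 CPM, below all 3 EMT6-P tumors. Col1a2 was the most abundant, at 2310 to 4818 CPM. In tumor 3 Col3a1 stood higher, at 9056 CPM, and Dcn, the proteoglycan decorin, was at 32.1 to 55.0 CPM in EMT6-P and 3334 CPM in tumor 3. Col1a1 was not raised in tumor 3, at 2745 CPM, within the EMT6-P range of 2419 to 3181 CPM. Skeletal muscle genes summed to 627, 11.6 and 356 CPM in EMT6-P and 4055, 7.94 and 3.66 CPM in EMT6-PTR, with Acta1 the most abundant at 1653 CPM in EMT6-PTR tumor 1, where the replication genes were near the EMT6-P level. Red cell genes summed to 144, 30.8 and 34.5 CPM in EMT6-P and 44.3, 377 and 197 CPM in EMT6-PTR. All 5 that passed the filter were at least 2-fold above the EMT6-P mean in EMT6-PTR tumors 2 and 3 (background 4.71% and 11.1%). In EMT6-P tumor 1, 4 of them were also at least 2-fold above that mean. T cell genes summed to 7.54 to 10.5 CPM in EMT6-P and 9.39, 24.2 and 10.3 CPM in EMT6-PTR, and in tumor 2, 5 of the 6 that passed the filter were at least 2-fold above (background 4.71%).

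In the metastasis, the epithelial genes summed to 1753 CPM, with members on both sides of the EMT6-P values. Krt8 and Krt14 were at least 2-fold below the EMT6-P mean (background 11.4%), at 740.1 and 30.2 CPM. The other 5 that passed 2-fold, Krt7, Krt19, Cdh1, Epcam and Cldn4, stood above it (background 14.8%), with Krt7 at 387 CPM against 1.60 to 3.48 CPM in EMT6-P. The leukocyte genes summed to 1221 CPM. The 6 lung genes summed to 8063 CPM there, against at most 26.97 CPM in any primary tumor, with Scgb1a1 and Sftpc, a club cell and an alveolar gene, at 2996 and 2340 CPM and none of the 6 at 0. Neutrophil genes summed to 2970 CPM with S100a9 the most abundant at 1539 CPM, and red cell genes to 7758 CPM with Hbb-bs the most abundant at 3785 CPM. Of the other lists, macrophage genes summed to 1339 CPM in the metastasis and 1459 to 1765 CPM in the primary tumors, and C1qa, the most abundant by its mean, was at 350 and 379 to 479 CPM. Endothelial genes summed to 792 CPM in the metastasis and 144 to 211 CPM in the primary tumors, and Pecam1, the most abundant by its mean, was at 284 and 37.7 to 60.6 CPM. T cell, B cell and adipocyte genes summed to at most 38.1, 23.1 and 30.1 CPM in any library, and their most abundant genes by the mean over libraries were Lck, Cd79a and Fabp4. The part of this tissue in the low replication values of the metastasis was not tested.

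**Figure D5:**
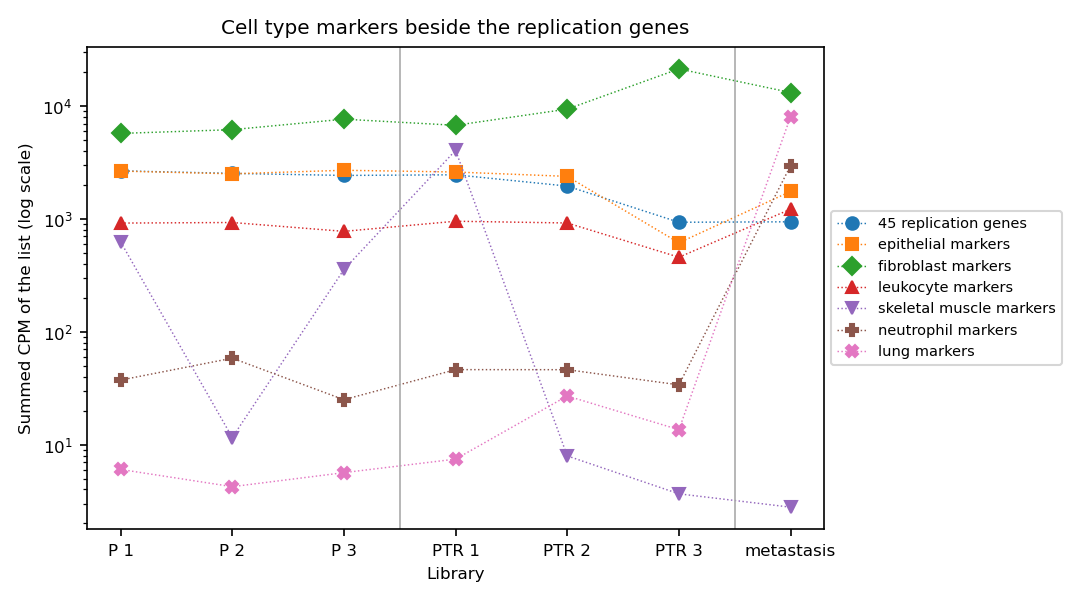
Summed CPM of the replication genes and of 6 of the marker lists (log axis) in each of the 7 libraries (x axis), with dotted lines that only join the points of a list. In EMT6-PTR tumor 3 the replication sum of 934 CPM lies beside an epithelial sum of 614 CPM and a fibroblast sum of 21370 CPM.

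Of the 45 members, 21 overlap another annotated gene on GRCm38, and 14 overlap a protein-coding gene with a mean of at least 1 CPM, so that their values hold some uncertainty. Cdt1 overlaps Gm20388 and Pole2 overlaps Gm49384 on the same strand. On the opposite strand, Orc6 overlaps Vps35, Mcm7 overlaps Cops6 and Ap4m1, Cdc45 overlaps Ufd1, Gins2 overlaps Gm20388 and Gse1, Rfc2 overlaps Lat2, Rfc4 overlaps Eif4a2, Rfc5 overlaps Wsb2, Fen1 overlaps Tmem258, Ccne2 overlaps Ints8 and Chaf1a overlaps Ubxn6, and Lig1 and Tk1 overlap less abundant genes. Of the 5 members with an unadjusted p under 0.05 in edgeR, Orc6, Gins2, Rfc2 and Rfc5 have such an opposite-strand overlap and Dut does not. Vps35, which overlaps Orc6, averaged 165 CPM over the primary tumors. The libraries were stranded, and whether the counting used strand is not given in the sources used here.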

How the data were processed

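RNA-seq of 3 control (EMT6-P) and 3 resistant (EMT6-PTR) tumors and of 1 resistant metastasis was analysed, grouped by the labels. The deposited values are expected (estimated) counts per gene: per the paper's methods and the labels, the authors made stranded polyadenylated libraries, checked reads with FastQC 0.11.5, aligned them to GRCm38 with STAR 2.6.0a and estimated counts with RSEM 1.3.1. RSEM shares reads among near-identical genes by estimation, and 21 of the 45 members have a fractional value in some library.

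Counts were rounded. After filterByExpr, edgeR 4.0.16 in R 4.3.3 was run with upper-quartile factors (glmQLFit, then glmQLFTest), with Benjamini-Hochberg adjustment over 15645 genes and a threshold of 0.05. The standard error is the size of the log2 fold change divided by the square root of F. CPM uses factors from all 7 libraries. Alternatives were TMM scaling, DESeq2 1.42.0, limma-voom (limma 3.58.1), other count filters, the metastasis as a group of its own, CT010467.1 left out of library sizes, a block for the replicate number, and each tumor left out in turn. The fits were also run on simulated counts with known changes, in which both groups had the same dispersion, unlike in the data. A gene at 0 may hold up to 3 counts, for counting error only. At totals of 20430110 to 25213472 counts per library, 3 counts are 0.119 to 0.147 CPM before scaling.

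The members and lists were chosen with earlier results of these data known. All 45 members may be named, and each role gives values by tumor for the 2 genes with the smallest p and the most abundant gene per kilobase of merged GENCODE exons. Other lists give up to 3 genes with the smallest p, marker lists the most abundant gene, and others were chosen after their values were seen. Promoter windows are RefSeq sequences (GRCm38.p6).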

Additional observations from a re-analysis of the deposited data

How the results depend on the processing

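The median log2 fold change of the members stayed below 0 under all 14 alternatives, from −0.82 without EMT6-PTR tumor 1 to −0.18 without EMT6-PTR tumor 3, and the number of members called was 0 in each. The number of genes called was 0 under every alternative except DESeq2, which called 281 genes (138 higher, 143 lower), none of them a member. Members with an unadjusted p under 0.05 and lower numbered 5 (background 5.57%), and 2 to 13 when 1 tumor was left out. They were 2, 2 and 3 without EMT6-P tumors 1 to 3 (background over all genes 1.89%, 2.75% and 2.73%) and 12, 3 and 13 without EMT6-PTR tumors 1 to 3 (background 8.45%, 3.77% and 11.5%). Of 840 recomputed gene values 8 reversed, and 37 of the 45 members never did. With 1 tumor left out, log2 fold changes ranged from −0.054 (without EMT6-PTR tumor 2) to 0.37 for Ccne2. The other 7 turned above 0 without EMT6-PTR tumor 3: Orc1 ranged from −0.75 to 0.13, Mcm2 from −1.02 to 0.13, Mcm10 from −0.64 to 0.15, Pola1 from −0.63 to 0.082, Pole from −0.94 to 0.025, Rrm2 from −1.003 to 0.21 and Chaf1a from −0.37 to 0.32. Rnaseh2c passed only under DESeq2 (log2 fold change −0.64, adjusted p 0.0374). Without a scaling factor, an alternative chosen after seeing the data, the median difference was 0.084 in EMT6-PTR tumor 1 and −0.56 in tumor 2, −1.56 in tumor 3 and −1.52 in the metastasis. The cause of these differences was not tested.

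The replicate numbers may only name samples. Deviations from the group means correlated at 0.25, 0.218 and 0.088 across genes for tumors 1, 2 and 3 of the groups, and each sample correlated best with its own number, which is a hint from the data and not from the design. With the replicate number as a block, the median log2 fold change of the members was −0.65, 7 members had an unadjusted p under 0.05 and were lower (background 4.36%), and 0 genes were called.

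The metastasis has no replicate. The EMT6-PTR tumors differed more from one another than the EMT6-P tumors did, and the smallest adjusted p in edgeR over all genes was 0.421. Bulk RNA does not separate the cells of a tumor.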

Other observations

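Regulators of the cell cycle outside the lists' 3 leading genes also differed between libraries, and those named here were chosen after their values were seen, with no test beyond edgeR's. Tfdp2, a partner of E2F factors, stood at 71.7 CPM in EMT6-PTR tumor 3 and 54.6 CPM in the metastasis, against 18.8 to 22.2 CPM in the other 5 primary tumors. Rbl2, the p130 pocket protein that holds E2F targets silent in resting cells, stood at 46.7 CPM in tumor 3, against 20.5 to 25.1 CPM in the other primary tumors. Ccna2, the S phase cyclin, stood at 13.8 CPM in tumor 3 and 12.8 CPM in the metastasis, against 105 to 147 CPM elsewhere, and E2f7 at 1.52 CPM in tumor 3, against 14.0 to 20.6 CPM in the other primary tumors. None of these 4 genes had an unadjusted p under 0.05.

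Orc2 to Orc5, core subunits of the origin recognition complex, differed less from EMT6-P than Orc1 did in EMT6-PTR tumor 3, where they stood at 37.1, 26.5, 47.5 and 17.1 CPM, against EMT6-P ranges of 37.4 to 43.1, 18 to 22.7, 51.7 to 52.98 and 15.1 to 15.98 CPM, whereas Orc1 stood at 1.44 CPM against 7.52 to 8.29 CPM. Orc3 was above all 3 EMT6-P tumors in each EMT6-PTR tumor (background 9.52%, log2 fold change 0.35, unadjusted p = 0.0494, edgeR adjusted p 0.437). The CDK inhibitor gene Cdkn1a was at 421 CPM in the metastasis, against 87.4 to 219.6 CPM in the primary tumors, and Cdkn2b at 26.5 CPM, against 0.311 to 3.04 CPM.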
